A study of Sus scrofa with 6 samples.

Results

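The leukocyte integrins are the cell surface adhesion receptors that carry blood cells out of the circulation. Their genes were followed here in RNA from peripheral blood mononuclear cells (PBMCs), the lymphocytes and monocytes that a density gradient separates from blood. A list of 10 subunit genes was matched to the symbols of the deposited expression table, and 8 of the 10 had a row among 11564 rows. These were the beta chains ITGB1, ITGB2 and ITGB7 and the alpha chains ITGA4, ITGA5, ITGA6, ITGAL and ITGAV. No row carried the symbol ITGAM or ITGAX. A row without a symbol, ENSSSCG00000007754, is paired with ITGAM by the reference table of gene names, so its values are given beside the 8 genes without being counted among them. ITGAX was not analysed here.

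The donors were 6 Yorkshire pigs, 6 months old, of which 3 carry the label wild type (WT) and 3 the label of leptin overexpression, leptin being the hormone that fat cells secrete to report energy stores. Per the study's methods, the transgenic pigs were made by somatic cell nuclear transfer from fetal fibroblasts stably transfected with a plasmid holding pig leptin and selected with G418, and the comparison animals carried no transgene. The labels give each library its own animal code and no sex, litter or batch. The question that the design poses for these genes is whether the adhesion receptors of circulating leukocytes differ between the genotypes.

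An integrin is a pair of transmembrane chains, alpha and beta, and the pairing sets which ligand the receptor holds. It waits on the resting leukocyte in a bent, weakly binding form, and signals from chemokine and antigen receptors bring talin and kindlin to the beta tail and open it. ITGB2 pairs with ITGAL to form LFA-1, which binds the ICAMs, and with ITGAM to form Mac-1, the complement receptor of monocytes and neutrophils. ITGA4 is shared by ITGB1, in the receptor for VCAM1 and fibronectin, and by ITGB7, in the receptor for MADCAM1 that takes lymphocytes to the gut.

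The values are FPKM, fragment counts scaled by transcript length and library size, so levels may be compared between genes per length. The depth of the libraries is unknown. Over all rows, the FPKM of a library summed to 444888 to 449653 under the WT label and to 467276 to 503140 under the leptin label. The leptin gene itself, LEP, was listed at 50.0, 0 and 0.118 FPKM in WT replicates 1, 2 and 3 and at 0, 18.3 and 39.3 FPKM in leptin replicates 1, 2 and 3. The libraries labelled WT replicate 1 and leptin replicate 1 therefore went against their labels, so every difference refers to the library labels, and differences are also given with both of them left out. Neutrophil markers stood apart too, summing to 3537 FPKM in WT replicate 1 and to between 414 and 1273 FPKM in the other libraries.

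In expression level the 8 genes fell into a high, a middle and a low tier. ITGB2 and ITGB7 were at or above 308 FPKM, ITGAL, ITGB1, ITGA4 and ITGA5 between 40.6 and 160 FPKM, and ITGA6 and ITGAV at or below 6.26 FPKM. ITGB2 ranked 172 and ITGB7 ranked 180 among the 11564 rows by mean level. Neighbours in the order did not all separate. ITGB2 was above ITGB7 in 4 of 6 libraries and ITGB1 above ITGA4 in 5 of 6, and the ranges of each pair overlapped. ITGAL was above ITGB1 in 6 of 6 libraries, by 1.02 to 1.62-fold, although their ranges overlapped. The remaining steps were clear of the spread: ITGB7 was 2.72 to 3.28-fold above ITGAL, ITGA4 1.15 to 2.01-fold above ITGA5, ITGA5 7.40 to 10.1-fold above ITGA6, and ITGA6 1.96 to 6.48-fold above ITGAV in each library.

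**Figure D1:**
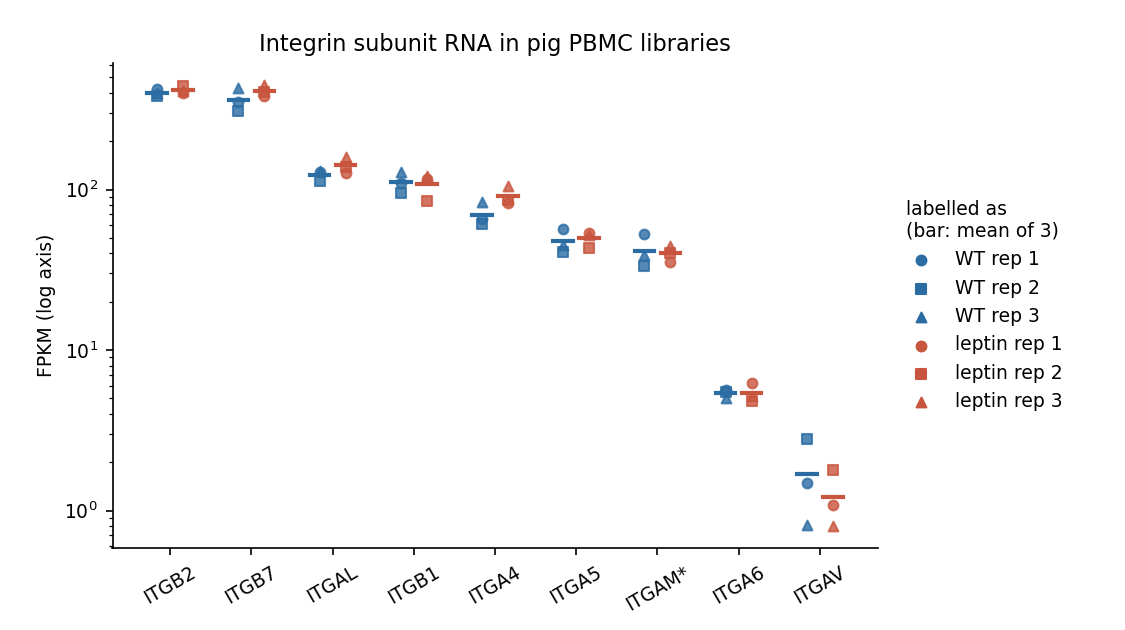
FPKM of each integrin subunit (log axis) in the 6 libraries, with 1 point per library, colour by label and a bar at the mean of 3. ITGB2 and ITGB7 lie at the top in every library, ITGAV lies at the bottom between 0.802 and 2.80 FPKM, and the points of the labels overlap for every gene. The asterisk marks ITGAM, which was matched by its gene ID.

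Among the beta chains, ITGB2, the common chain of the leukocyte-specific integrins (ENSSSCG00000025133, chromosome 13, 217446027 to 217475903 by the table's own coordinates, whose assembly the sources used here do not name), was the steadiest. It stood at 424, 382 and 401 FPKM under the WT label and at 401, 443 and 414 FPKM under the leptin label. The groups interleaved, and the coefficient of variation (CV, the SD as a share of the mean over 6 libraries) was 5.22%, a value that only 1.12% of the genes tested fell below. The WT mean was 402 ± 21.2 FPKM (SD, n = 3) and the leptin mean 419 ± 21.9 FPKM (SD, n = 3). On the log2(FPKM + 1) scale used for all tests, the difference was 0.060 (SE 0.14, 95% interval −0.25 to 0.37, limma adjusted p = 0.993).

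ITGB7, the beta chain of the gut homing receptor and of the ITGAE receptor for E-cadherin (ENSSSCG00000000257, chromosome 5, 18830223 to 18839919), was listed at 351, 308 and 427 FPKM under the WT label and at 384, 408 and 448 FPKM under the leptin label. WT replicate 3 lay above 2 of the 3 libraries labelled leptin, so the groups overlapped. Their means were 362 ± 60.3 and 413 ± 32.4 FPKM (SD, n = 3 each), a difference of 0.20 (SE 0.17, 95% interval −0.19 to 0.59, limma adjusted p = 0.993).

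ITGB1, the beta chain of the VLA receptors for matrix and VCAM1 (ENSSSCG00000011101, chromosome 10, 61450694 to 61502941), was listed at 110, 94.7 and 128 FPKM under the WT label and at 116, 85.3 and 122 FPKM under the leptin label. Replicate 2 was the lowest library of each label. The means were 111 ± 16.6 and 108 ± 19.7 FPKM (SD, n = 3 each), and the interval of the difference ran from −0.49 to 0.40 (limma adjusted p = 0.993). The same replicate 2 libraries had the lowest summed T cell markers, 969 FPKM in WT and 885 FPKM in leptin against 1276 to 1508 FPKM in the other 4 libraries. The part of that difference in the ITGB1 values was not tested. In RNA from a mixture of cells, fewer cells of a type and less RNA per cell cannot be told apart.

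Among the alpha chains, ITGA4, which makes the receptors for VCAM1 with ITGB1 and for MADCAM1 with ITGB7 (ENSSSCG00000016009, chromosome 15, 96521133 to 96603831), had the largest log2(FPKM + 1) difference by label among the 8 genes. It was listed at 65.2, 61.1 and 83.1 FPKM under the WT label and at 82.3, 85.7 and 106 FPKM under the leptin label. WT replicate 3 reached just above leptin replicate 1, and the other libraries separated. The means were 69.8 ± 11.7 and 91.2 ± 12.5 FPKM (SD, n = 3 each), a ratio of 1.31. The log2 difference of 0.38 (SE 0.18, 95% interval −0.024 to 0.79) did not pass the threshold, with an unadjusted p of 0.0617 and an adjusted p of 0.993 by limma. An exact two-sided permutation test of the log2 values gave p = 0.2, where 3 against 3 libraries cannot go below 0.1. Leaving out each library in turn gave 0.28, without leptin replicate 3 (limma unadjusted p = 0.219), to 0.52, without WT replicate 3 (limma unadjusted p = 0.0218, adjusted p = 0.614). In the fit without WT replicate 3, 7.99% of all genes tested had an unadjusted p under 0.05. With both replicate 1 libraries left out the ITGA4 difference was 0.41 (limma unadjusted p = 0.131).

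ITGAL, the alpha chain of LFA-1 on lymphocytes and other leukocytes (ENSSSCG00000007797, chromosome 3, 18259504 to 18298947), was the most abundant alpha chain. It was listed at 128, 113 and 130 FPKM under the WT label and at 127, 138 and 160 FPKM under the leptin label. Leptin replicate 3 was the highest library and leptin replicate 1 lay inside the WT range. The means of 124 ± 9.10 and 142 ± 16.6 FPKM (SD, n = 3 each) differed by 0.19 (SE 0.15, 95% interval −0.16 to 0.54, limma adjusted p = 0.993).

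ITGAM, the alpha chain of Mac-1 on monocytes, neutrophils and natural killer (NK) cells (chromosome 3, 17652410 to 17668230), was listed at 52.7, 33.4 and 38.9 FPKM under the WT label and at 35.4, 40.5 and 44.4 FPKM under the leptin label. WT replicate 1, the library with the highest neutrophil markers, was also the highest in ITGAM. The means were 41.7 ± 9.91 and 40.1 ± 4.55 FPKM (SD, n = 3 each), and the interval of the difference, −0.49 to 0.42, spanned 0 (limma adjusted p = 0.997). Its direction depended on the replicate 1 libraries, the difference being −0.035 with all 6 libraries and 0.23 with both left out.

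ITGA5, the fibronectin receptor chain of VLA-5 (ENSSSCG00000000293, chromosome 5, 20442127 to 20465312), was listed at 56.7, 40.6 and 45.3 FPKM under the WT label and 53.7, 43.2 and 52.4 FPKM under the leptin label. The replicate 1 libraries were the highest of each label. The means were 47.5 ± 8.25 and 49.8 ± 5.73 FPKM (SD, n = 3 each), with an interval of the difference from −0.33 to 0.48 (limma adjusted p = 0.993). The part of the neutrophil markers in the ITGAM and ITGA5 values was not tested.

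ITGA6, the laminin receptor chain of lymphocytes and platelets (ENSSSCG00000015955, chromosome 15, 87830504 to 87900014), was low and steady at 5.67, 5.49 and 5.06 FPKM under the WT label and 6.26, 4.79 and 5.19 FPKM under the leptin label. The leptin libraries held both the highest and the lowest value, and the means were 5.41 ± 0.315 and 5.41 ± 0.756 FPKM (SD, n = 3 each). The interval of the difference was −0.35 to 0.34 (limma adjusted p = 0.998).

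ITGAV, the alpha chain of the vitronectin receptors, which is strong on macrophages and adherent cells (ENSSSCG00000016027, chromosome 15, 101580813 to 101720783), was the lowest and the most variable. It was listed at 1.495, 2.80 and 0.808 FPKM under the WT label and at 1.09, 1.78 and 0.802 FPKM under the leptin label. Replicate 2 was the highest and replicate 3 the lowest library within each label. The CV of 52.0% was higher than that of 96.1% of the genes tested. The ratio of the means, leptin over WT, was 0.72, farther from equality than that of ITGA4. The log2(FPKM + 1) difference of −0.24 had an interval of −0.89 to 0.42 (limma adjusted p = 0.993), and ITGAV was the only one of the 8 genes with libraries under 1 FPKM.

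**Figure D2:**
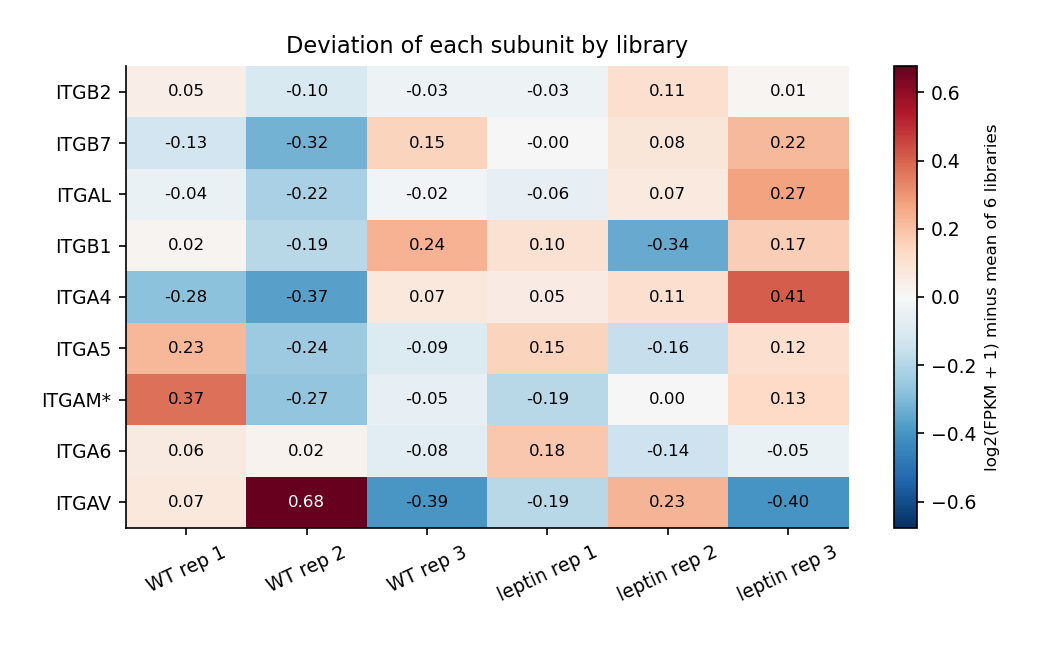
Deviation of each subunit in each library from its mean over 6 libraries, in log2(FPKM + 1) units, with red above and blue below the mean. WT replicate 2 is the lowest library of 5 of the 8 genes while ITGAV is at its highest there, and ITGAM, marked by an asterisk, is at its highest in WT replicate 1.

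On the log2(FPKM + 1) scale, 5 of the 8 genes were higher and 3 lower under the leptin label, and the 5 became 4 with median-of-ratios scaling, under which ITGB2 changed sign. Of all genes tested, 63.1% were higher under the leptin label with FPKM as deposited, 50.5% with median-of-ratios scaling and 43.2% with both replicate 1 libraries left out. By FPKM means the split was 6 to 2, since the ITGA6 means were nearly equal. The median log2 difference was 0.066 over the 8 genes and 0.059 over the 10735 genes tested. Of the 8 genes, 0 passed an adjusted p of 0.05 by limma, 0 had an unadjusted p under 0.05, and 0 had groups that did not overlap. Over the genes tested these shares were 0.00932%, 3.18% and 7.63%. With both replicate 1 libraries left out, the 7 genes still testable kept their sign and 0 had an unadjusted p under 0.05, against 2.32% of all genes tested in that fit, the differences being 0.13 for ITGB2, 0.24 for ITGB7, 0.29 for ITGAL, −0.11 for ITGB1, 0.41 for ITGA4, 0.15 for ITGA5 and −0.066 for ITGA6. ITGAV could not be fitted there, since it no longer passed the filter on low values. Of the 8 genes, 6 had a CV below 17.5%, the median CV of the genes tested, and ITGA4 and ITGAV were above it. The CVs were not compared with those of genes at a like expression level.

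**Figure D3:**
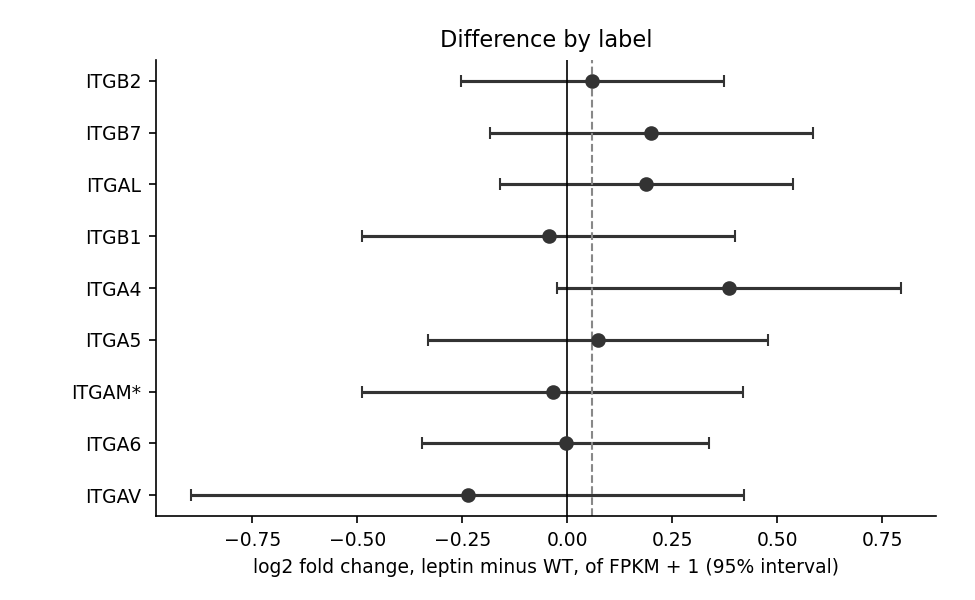
Difference of each subunit between the libraries labelled leptin and WT, in log2(FPKM + 1) units, with the 95% interval of the limma fit. Every interval includes 0, that of ITGA4 by the smallest margin from −0.024 to 0.79, and the dashed line marks the median of all genes tested, 0.059. The asterisk marks ITGAM, matched by gene ID.

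The 8 genes summed to 1141, 1008 and 1220 FPKM under the WT label and to 1171, 1210 and 1307 FPKM under the leptin label. The groups overlapped, with WT replicate 3 above leptin replicates 1 and 2. ITGB2 made 31.7 to 37.9% of the sum and ITGB7 30.6 to 35.0%, so these beta chains held most of the integrin transcript in every library. ITGAL made 10.7 to 12.2%, ITGB1 7.05 to 10.5% and ITGA4 5.71 to 8.07%.

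Beta and alpha chains reach the cell surface as pairs, so the level of a beta chain was set against the sum of the alpha chains it joins. These ratios were chosen after the values were seen. ITGB2 over ITGAL and ITGAM was 2.35, 2.60 and 2.37 under the WT label and 2.47, 2.48 and 2.03 under the leptin label. The groups overlapped (exact two-sided permutation p = 0.7), and ITGAX and ITGAD, which also pair with ITGB2, are not in the sum.

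ITGB7 over ITGA4 and ITGAE was 4.99, 4.61 and 4.54 under the WT label and 4.19, 4.50 and 3.85 under the leptin label. All libraries labelled leptin were below all those labelled WT, by a narrow margin. The means were 4.72 ± 0.242 and 4.18 ± 0.324 (SD, n = 3 each), and the exact two-sided permutation p was 0.1, the smallest that 3 against 3 libraries allow (0.15 adjusted over 3 ratios).

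ITGB1 was below the sum of its 8 alpha chains (ITGA1, ITGA2, ITGA3, ITGA4, ITGA5, ITGA6, ITGA10 and ITGAV) in every library, at 0.795, 0.813 and 0.901 under the WT label and 0.756, 0.603 and 0.698 under the leptin label. Again the groups did not overlap. The means were 0.836 ± 0.0567 and 0.685 ± 0.0770 (SD, n = 3 each; exact two-sided permutation p = 0.1, 0.15 adjusted over 3 ratios). ITGA4 enters the sums of both ITGB7 and ITGB1, so these results share it. On the log2 scale the differences by label were −0.074 for ITGB2, −0.18 for ITGB7 and −0.29 for ITGB1, and −0.15, −0.14 and −0.40 with both replicate 1 libraries left out, where the smallest p allowed is 0.333.

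**Figure D4:**
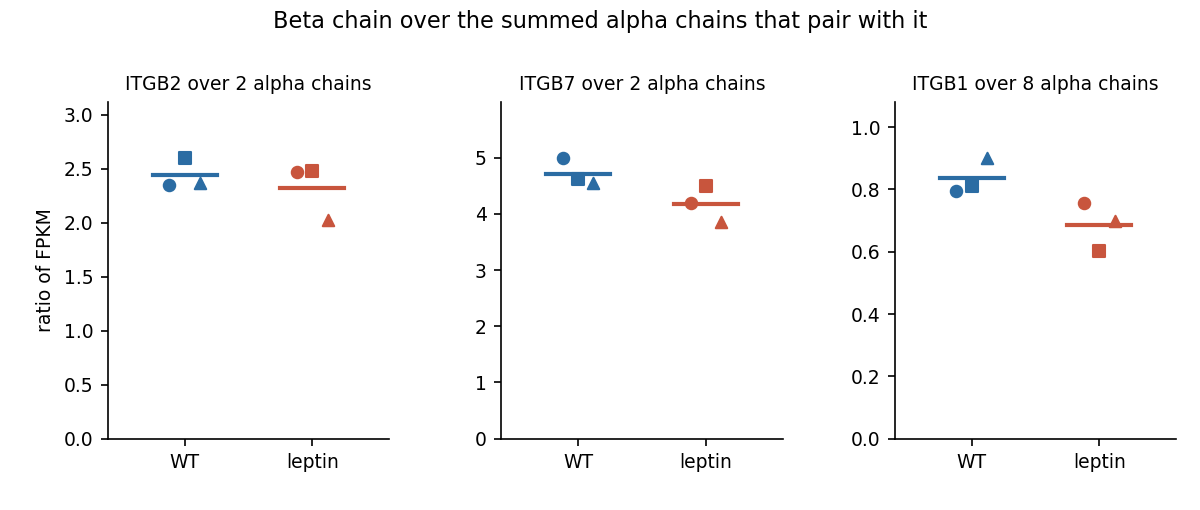
FPKM of each beta chain divided by the summed FPKM of the alpha chains that pair with it, 1 point per library, with colour by label, shape by replicate and a bar at the mean of 3. ITGB7 stands 3.85 to 4.99-fold above its alpha chains and ITGB1 stands below its alpha chains in every library, and for both the points labelled leptin lie under those labelled WT.

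Ratios of single subunits were compared in the same way for 5 pairs, where no ratio could pass a p of 0.05 with 3 against 3 libraries. ITGAM over ITGAL, a myeloid against a lymphoid weighted chain, was 0.412, 0.295 and 0.299 under the WT label and 0.279, 0.293 and 0.279 under the leptin label. The groups did not overlap, and the gap came mostly from WT replicate 1. The log2 difference was −0.23 (exact two-sided permutation p = 0.1, 0.25 adjusted over 5 ratios) and −0.056 with both replicate 1 libraries left out.

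ITGB7 over ITGB1, the partners that compete for ITGA4, was 3.20, 3.25 and 3.34 under the WT label and 3.29, 4.78 and 3.68 under the leptin label. Leptin replicate 2, where ITGB1 was lowest, stood alone at the top (log2 difference 0.25, exact two-sided permutation p = 0.2, 0.25 adjusted, and 0.35 with both replicate 1 libraries left out). Without leptin replicate 2 the difference was 0.093. ITGA5 over ITGA4 differed by −0.32 and ITGA6 over ITGA4 by −0.40 on the log2 scale (exact two-sided permutation p = 0.2 each), and ITGB2 over ITGB1 by 0.11 (exact two-sided permutation p = 0.8). With both replicate 1 libraries left out these differences were −0.27, −0.50 and 0.24. Leaving out each library in turn gave −0.48, without WT replicate 3, to −0.14, without WT replicate 1, for ITGA5 over ITGA4, and −0.58, without WT replicate 3, to −0.26, without leptin replicate 3, for ITGA6 over ITGA4.

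Whether chains that pair also moved together from animal to animal was examined for 7 pairs over the 6 libraries, on the log2(FPKM + 1) scale. ITGA4 and ITGB7 had a Pearson r of 0.94 (exact permutation p = 0.00556, adjusted over 7 pairs 0.0389) and a Spearman rho of 0.94 (exact permutation p = 0.0167, adjusted 0.117). Without the 2 libraries farthest from the median of ITGA4, r was 0.87, and within labels, from deviations about each label's mean, it was 0.95. Leaving out each library in turn gave r between 0.92 and 0.97, with adjusted p between 0.0972 and 0.175 by the exact permutation test over 5 libraries. The call was also lost with linear FPKM (r = 0.93, exact permutation p = 0.0111, adjusted 0.0778) and with median-of-ratios scaling (r = 0.89, exact permutation p = 0.0194, adjusted 0.0681). Both chains were lowest in WT replicate 2 and highest in leptin replicate 3. Some chains that do not pair were nearly as close, as r was 0.90 for ITGAL with ITGA4 and 0.86 for ITGAL with ITGB7.

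ITGAV and ITGB1 ran in opposite directions, with a Pearson r of −0.83 (exact permutation p = 0.0361, adjusted 0.126) and a Spearman rho of −0.89 (exact permutation p = 0.0333, adjusted 0.117). Without the 2 farthest libraries r was −0.92, and within labels it was −0.92. The permutation p within labels, 0.0111 (adjusted 0.0389), exchanged libraries across labels and is not exact for such deviations. Leaving out each library in turn gave r between −0.99 and −0.78, with adjusted p between 0.0875 and 0.35 by the exact permutation test. The limit on p with a library left out, given above for ITGA4 with ITGB7, holds here too. With median-of-ratios scaling it was −0.65 (exact permutation p = 0.169, adjusted 0.326). ITGAV stood in the same relation to ITGB7, which is not its partner (r = −0.85). ITGAV was highest in the replicate 2 libraries, where ITGB1 and the summed T cell markers were lowest, and their part in the relation was not tested.

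The other 5 pairs did not pass an adjusted p of 0.05. Pearson r was 0.56 for ITGAL with ITGB2 (exact permutation p = 0.210), 0.64 for ITGAM with ITGB2 (exact permutation p = 0.165) and 0.56 for ITGA5 with ITGB1 (exact permutation p = 0.275). It was 0.37 for ITGA4 with ITGB1 (exact permutation p = 0.467) and 0.30 for ITGA6 with ITGB1 (exact permutation p = 0.549). Spearman rho for these pairs, in the same order, was 0.71, 0.83, 0.37, 0.31 and 0.086, with exact permutation p of 0.136, 0.0583, 0.497, 0.564 and 0.919. Without the 2 farthest libraries, r was 0.78, 0.42, 0.56, −0.16 and −0.75, so the sign of the last pair and of ITGA4 with ITGB1 rested on those libraries. ITGAM with ITGB2 was higher in some settings, at 0.85 with median-of-ratios scaling (exact permutation p = 0.0194, adjusted 0.0681) and 0.94 without leptin replicate 2 (exact permutation p = 0.025, adjusted 0.0875). Without WT replicate 2 it was lower, at 0.43 (exact permutation p = 0.483, adjusted 0.758). ITGAL with ITGB2 was at 0.21 without WT replicate 2 and 0.87 without leptin replicate 3.

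**Figure D5:**
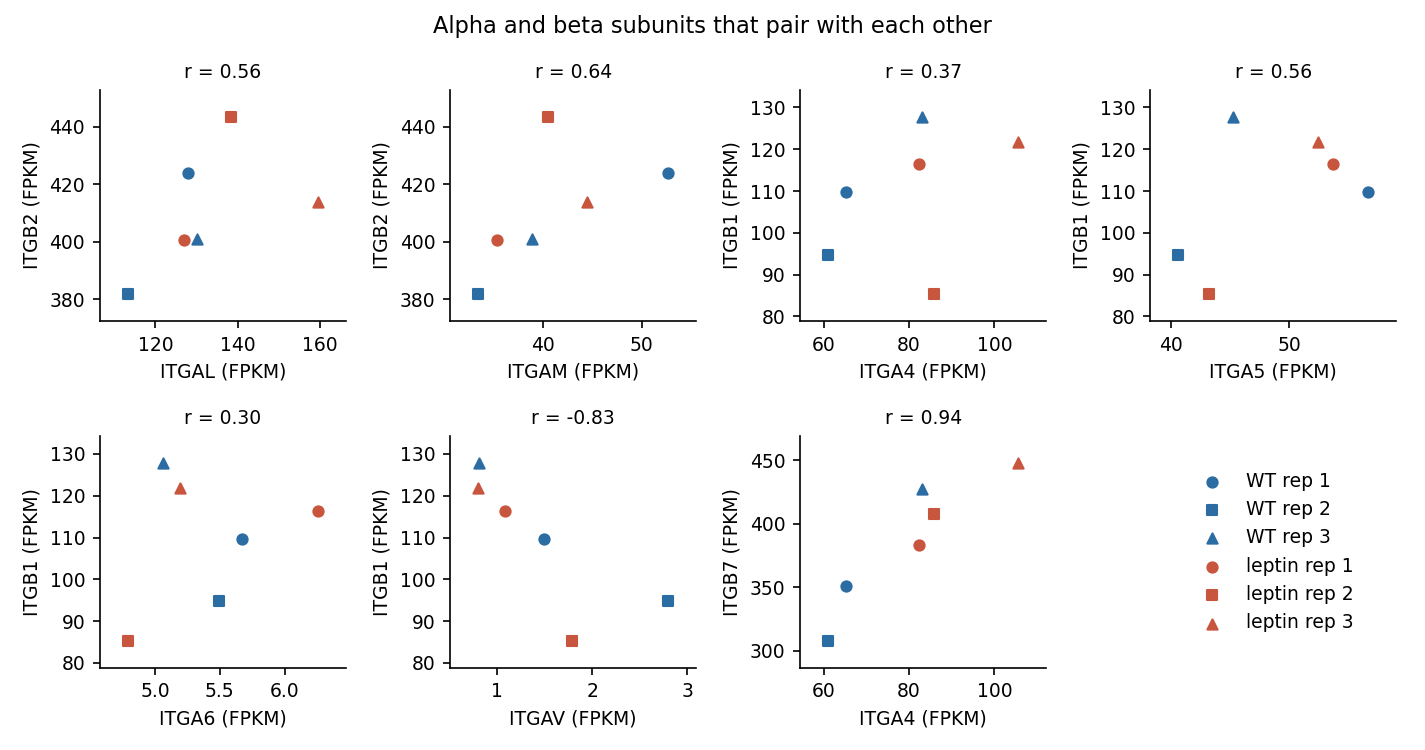
FPKM of alpha chains against the beta chain they pair with, 1 point per library, with colour by label, shape by replicate and axes that do not start at 0. Each r is that of the log2(FPKM + 1) values. ITGA4 and ITGB7 lie along a line from WT replicate 2 to leptin replicate 3, whereas ITGA4 and ITGB1 scatter (r = 0.37).

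Among named genes of the table, the profile most like that of ITGA4 over the 6 libraries was that of RAVER1, with a Pearson r of 0.996. For ITGB1 it was NLRC3 (r = 0.999), followed by ACTN4 (r = 0.998), which encodes an alpha-actinin that ties integrin tails to actin. For ITGB2 it was C19orf35 (r = 0.996), for ITGB7 PUSL1 (r = 0.993) and for ITGAL RRP36 (r = 0.988). For ITGA5 it was SMAD7 (r = 0.981), for ITGA6 EGLN1 (r = 0.969) and for ITGAV TDRD7 (r = 0.989). TDRD7 was listed at 16.4, 26.2 and 8.70 FPKM under the WT label and at 10.996, 17.7 and 9.90 FPKM under the leptin label, the order of libraries being close to that of ITGAV. With so many genes set against 6 libraries, high values of r arise readily, and these are descriptions.

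The other genes of the integrin system were taken as 6 lists with 71 genes tested. Each gene ID was counted as a gene, and CD47 and SYK each have separate IDs that were counted apart. Of the 71, 43 were higher and 28 lower under the leptin label, a share of 60.6% beside the 63.1% of all genes tested, with a median log2 difference of 0.024 against 0.059 over all genes tested. By limma 0 passed an adjusted p of 0.05, and 1 had an unadjusted p under 0.05, against 3.18% of all genes tested. That gene was ITGA1, the collagen receptor chain of activated and tissue-resident T cells. It was listed at 1.04, 1.55 and 1.04 FPKM under the WT label and at 3.05, 1.73 and 2.79 FPKM under the leptin label, so that the groups did not overlap. The log2 difference was 0.66 (SE 0.19, limma unadjusted p = 0.00929, adjusted p = 0.993), and 0.50 with both replicate 1 libraries left out (limma unadjusted p = 0.0883).

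Of the 7 other integrin subunits tested, 4 were higher and 3 lower under the leptin label. ITGA2, the collagen receptor chain of platelets, had the smallest p among the lower (−0.20, limma unadjusted p = 0.344). ITGAE, the mucosal partner of ITGB7, was listed at 5.05, 5.62 and 10.8 FPKM under the WT label and at 9.32, 4.85 and 10.7 FPKM under the leptin label. The platelet chain ITGB3 ran from 8.90 to 38.1 FPKM and its partner ITGA2B from 11.8 to 29.4 FPKM. Leptin replicate 3 was the lowest library for both platelet chains.

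Of 24 ligand symbols listed, 10 had a row, and VCAM1 and MADCAM1 were among those without a row. Of 8 ligand genes tested, 6 were higher and 2 lower, with 0 at an unadjusted p under 0.05 by limma. Over all genes tested, 63.1% were higher and 3.18% had such a p. ICAM3, the ICAM of resting leukocytes that LFA-1 binds, was listed at 618, 550 and 614 FPKM under the WT label and at 629, 991 and 758 FPKM under the leptin label. The groups did not overlap, although leptin replicate 1 exceeded WT replicate 1 by little (log2 difference 0.39, SE 0.19, limma unadjusted p = 0.0729, adjusted p = 0.993). With both replicate 1 libraries left out the ICAM3 difference was 0.58 (limma unadjusted p = 0.0369, adjusted p = 0.999). ICAM3 then took the place of ITGA1 as the adhesion gene with an unadjusted p under 0.05, which made 1.41% of the adhesion genes against 2.32% of all genes tested in that fit. THBS1, thrombospondin, had a difference of −0.36 (limma unadjusted p = 0.447).

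Of 16 genes listed as activators, 11 were higher and 5 lower, and of 6 restraints 4 were higher and 2 lower. The activator list took in ADAP1 (0.28), which is not the integrin adaptor ADAP, the product of FYB. RASSF5, the Rap effector that carries signals to LFA-1, had means of 53.5 ± 4.27 and 63.4 ± 5.45 FPKM (SD, n = 3 each; limma adjusted p = 0.993). SKAP2, an adaptor of the same route, was listed with a difference of −0.20. SHARPIN, which holds integrins inactive, had means of 10.3 ± 1.90 and 12.9 ± 1.005 FPKM (SD, n = 3 each; limma unadjusted p = 0.0993), and CYTIP, which restrains cytohesin and LFA-1 adhesion, had a difference of −0.30.

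Of 26 gene IDs of the adhesion complex, 14 were higher and 12 lower. The separate IDs of SYK went in opposite directions, at 0.15 and −0.035, and those of CD47 were both higher. DOCK2, a Rac exchange factor of migrating lymphocytes, was at 0.16. PTK2B, the focal adhesion kinase relative of leukocytes, was at −0.26. Of 8 selectins and homing partners, 4 were higher and 4 lower. CD44, the hyaluronan receptor, was listed at 455, 498 and 270 FPKM under the WT label and at 255, 335 and 300 FPKM under the leptin label. WT replicate 3 lay with the leptin libraries (log2 difference −0.42, limma unadjusted p = 0.127), and SPN, the sialomucin of T cells, had a difference of 0.23. With both replicate 1 libraries left out, the genes with the smallest p in each direction of each list kept the signs of their differences, at −0.12 for ITGA2, −0.43 for THBS1, 0.28 for RASSF5, −0.036 for SKAP2, 0.15 for SHARPIN and −0.094 for CYTIP. DOCK2 was then at 0.061, PTK2B at −0.13, CD44 at −0.21 and SPN at 0.098.

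Marker genes of the cell types that PBMCs hold were summed per library to set beside the integrins. All 11 T cell markers had a row, and their sum was 969 to 1330 FPKM under the WT label and 885 to 1508 FPKM under the leptin label. B cell markers (6 of 7 found) summed to 408 to 755 and 571 to 728 FPKM. NK and cytotoxic cell markers (7 of 7), the latter also made by T cells, summed to 141 to 281 and 122 to 234 FPKM. Monocyte markers (8 of 8) summed to 636 to 1231 and 833 to 1375 FPKM. Platelet markers (8 of 9) summed to 253 to 579 and 202 to 560 FPKM and red cell markers (3 of 7) to 25.1 to 219 and 21.8 to 103 FPKM. The neutrophil markers found were 7 of 10, with CAMP, CSF3R and CXCR2 not found. Of the markers tested, 0 of any type had an unadjusted p under 0.05 by limma, against 3.18% of all genes tested. KLRD1 of the NK and cytotoxic list, GP1BB of the platelet list and HBM of the red cell list were at 0 in some libraries. These genes and MMP8 of the neutrophil list did not pass the filter on low values and were not tested. The part of these sums in the integrin values was not tested.

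Several of the genes lie close to each other. ITGA6, ITGA4 and ITGAV fell within 13.9 Mb on chromosome 15, ITGAM and ITGAL within 0.647 Mb on chromosome 3, and ITGB7 and ITGA5 within 1.64 Mb on chromosome 5. Neighbours did not share a profile across libraries on chromosome 15, where ITGA4 was lowest and ITGAV highest in WT replicate 2. The annotation columns of the table placed 7 of the 8 genes in integrin-mediated signalling, a term held by 25 rows in all, and 7 of the 8 in the pathway of actin cytoskeleton regulation, held by 67 rows. Leukocyte transendothelial migration, held by 35 rows, took in 4 of the 8.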

How the data were processed

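RNA of PBMCs from 6 pigs, 3 per label, was sequenced by the authors, who deposited 1 table of FPKM per gene and library. The study's methods name Bowtie for alignment to an Ensembl transcriptome release and RSEM for quantification. The submitters' processing notes list FastQC, STAR 2.5, Cuffnorm and DESeq 1.22.1 without roles. These accounts differ, so which tools made the deposited FPKM is unclear from the sources used here. No assembly is named beside the table's coordinates. The table's own fold changes, p-values, FDR and marks were not used. Counts and depth are unknown, so no counting interval was given.

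Genes that reached 1 FPKM in 3 or more libraries (10735 of 11564) were compared as log2(FPKM + 1) with limma 3.58.1 in R 4.3.3, with Benjamini-Hochberg adjustment over all of them. Fold changes on this scale understate those of low genes. Ratios and correlations used exact two-sided permutation tests (SciPy 1.17.1), and the limma step was tested on simulated data. For deviations within labels the permutation test is not exact. A reference table of gene names held 64.1% of the row IDs.

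Named were all members found, the smallest p in each direction of each adhesion list, and the named gene most correlated with each member. Further genes (ITGAE, ITGB3, ITGA2B, ACTN4) were chosen after their values were seen. The members and lists were chosen with earlier results of these data known. Alternatives were the pseudocount, the filter, median-of-ratios scaling, a replicate block and left out libraries. For the members, limma with a variance trend and each gene's own variance without moderation were also tried.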

Additional observations from a re-analysis of the deposited data

How the results depend on the processing

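The adjusted p of the 8 genes and ITGAM was 0.614 or higher under every alternative tried. Of the alternatives, only the pseudocount, the scaling and left out libraries could move a log2 difference. The log2 difference of ITGA4 ranged from 0.28 to 0.52, that of ITGB7 from 0.091, without WT replicate 2, to 0.33, without WT replicate 3, and that of ITGAL from 0.0998, without leptin replicate 3, to 0.29, with both replicate 1 libraries left out. Median-of-ratios scaling turned ITGB2 to −0.0059. Its difference with each library left out in turn ran from 0.019, without leptin replicate 2, to 0.099, without WT replicate 1. Leaving out both replicate 1 libraries turned ITGAM to 0.23, and leaving out each library in turn gave −0.18 to 0.14 for it, with 0.14 without WT replicate 1 and 0.051 without leptin replicate 1. Leaving out each library in turn gave −0.15 to 0.11 for ITGB1 (0.063 without WT replicate 3, 0.11 without leptin replicate 2), −0.031 to 0.20 for ITGA5 and −0.49 to 0.043 for ITGAV (the turned signs without WT replicate 2). It gave −0.096 to 0.066 for ITGA6, with 0.026, 0.0064, 0.066 and 0.018 without WT replicates 1 and 2 and leptin replicates 2 and 3. When a single library was left out, ITGB2 over ITGB1 ranged from −0.096, without leptin replicate 2, to 0.21, and was −0.0050 without WT replicate 3. Likewise, ITGB2 over its alpha chains ranged from −0.12 to 0.022, the latter without leptin replicate 3, and r of ITGA6 with ITGB1 from −0.29, without leptin replicate 2, to 0.59. For ITGB1 with ITGA4, r ranged from 0.15, without WT replicate 2, to 0.80, without leptin replicate 2, and with ITGA5 from 0.42, without WT replicate 2, to 0.82, without WT replicate 3. The balance ratios and these correlation settings were chosen after seeing the data. Members with an unadjusted p under 0.05 numbered 0 to 1 and adhesion genes 1 to 6 when a library was left out, the highest of each without WT replicate 3, where 7.99% of all genes tested and 8.45% of the adhesion genes had such a p. The cause was not tested for any of these.

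Libraries that share a replicate number belong to separate pigs. Their deviations from the means of their labels correlated by −0.28, 0.13 and −0.0073 for numbers 1, 2 and 3. No reference distribution was made for these values, so whether libraries of a number share an order or batch was not tested. With a replicate block the difference of ITGA4 was 0.38 (limma adjusted p = 0.999), 0 members passed, and the 5 to 3 split by direction was the same. With 3 libraries per label, of which 1 in each went against its label in LEP, intervals reached 0.31 to 0.66 log2 units to each side, and smaller differences could not be resolved. The depth behind each FPKM is unknown, which bears most on ITGAV and ITGA1.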
